A study of Mus musculus with 8 samples.

Results

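Islands of H3K27me3 on chromosome 11 were compared with those on chromosome 3 in male mouse liver. All islands listed on either chromosome were taken, 7786 on chromosome 11 and 5278 on chromosome 3, of 107140 islands over 8 lists. The lists came from chromatin immunoprecipitation sequencing (ChIP-seq) of livers of CD-1 males, an outbred stock, 7 weeks old. Livers were taken 3 h after an injection of TCPOBOP (3 mg/kg) or of corn oil with 1% DMSO alone, the vehicle. TCPOBOP activates CAR, a nuclear receptor that switches on drug-metabolising genes in hepatocytes. Fragments of 600 to 1100 bp, digested to 500 bp, gave 3 vehicle and 3 TCPOBOP libraries, each from the liver of a separate animal. Fragments over 1100 bp, digested to 200 bp, gave 1 more library per treatment from the ChIP sample of replicate 1, so these are not further animals. Both chromosomes were picked with the uneven cover of the autosomes already known. Number, cover and spacing of islands are therefore given as descriptions, with no test. Width and score were tested, but width is a part of cover and score grows with width. Their p-values are thus not independent of how the chromosomes were picked. Values for 3 livers are listed from replicate 1 to 3.

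H3K27me3 is trimethylation of lysine 27 on histone H3. Polycomb repressive complex 2 writes it, and it marks genes held silent in a cell type, above all developmental regulators that belong to other lineages. In vertebrates the complex is known to gather at unmethylated stretches rich in CG dinucleotides, and the mark can spread from there over long distances. An island is a run of enriched windows called by the authors in 1 library, and its score is the authors' own value. In bulk liver, a mark in fewer cells and a weaker mark in every cell cannot be told apart.

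Chromosome 11 is the gene-dense member of the pair and chromosome 3 the gene-poor one. In the RefSeq table of assembly GRCm38.p6, chromosome 11 had 1609 protein-coding genes and ranked 2 of 19 autosomes by genes per Mb (13.2), while chromosome 3 had 983 and ranked 17 (6.15). Their promoters also differed in base composition. Over the 250 bases upstream of the start, the median promoter held 13 CG dinucleotides on chromosome 11 (1561 promoters) and 10 on chromosome 3 (1009 promoters), against 10 over all 19 autosomes (20085 promoters). At least 10 CG were found in 58.1, 51.4 and 51.3% of them, and at least 1 in 96.22, 95.0 and 93.7%. Reading the other strand gives the same count.

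The promoters of 6 genes are shown to give the sequence behind the loci described below: 2 of loci under islands and 1 of a liver gene free of islands for each chromosome. They are the 250 upstream bases from RefSeq (GRCm38.p6), 5′ to 3′ on the gene's strand, with each CG in capitals. Their positions are of that assembly and cannot be set on the mm9 islands directly. Hoxb4 (chr11:96318017-96318266, plus strand) and Tbx4 (chr11:85896515-85896764, plus strand) encode transcription factors of the embryonic axis and the hind limb, and G6pc (chr11:101367466-101367715, plus strand) encodes the glucose-6-phosphatase of hepatocytes. Sox2 (chr3:34649745-34649994, plus strand) and Shox2 (chr3:66981772-66982021, minus strand) encode factors of the neural and pluripotent lineages and of limb and heart, and Fgb (chr3:83049864-83050113, minus strand) encodes the beta chain of fibrinogen, secreted by hepatocytes.
Hoxb4: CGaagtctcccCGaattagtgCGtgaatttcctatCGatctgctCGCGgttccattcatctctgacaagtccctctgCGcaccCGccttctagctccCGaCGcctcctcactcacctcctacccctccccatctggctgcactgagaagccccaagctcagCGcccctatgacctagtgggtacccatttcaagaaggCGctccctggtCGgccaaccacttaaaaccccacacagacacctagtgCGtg
Tbx4: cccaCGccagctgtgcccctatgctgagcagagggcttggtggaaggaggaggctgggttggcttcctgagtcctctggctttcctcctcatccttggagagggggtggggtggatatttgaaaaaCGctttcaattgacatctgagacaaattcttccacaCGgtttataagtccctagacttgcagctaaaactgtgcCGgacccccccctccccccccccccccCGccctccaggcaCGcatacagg
G6pc: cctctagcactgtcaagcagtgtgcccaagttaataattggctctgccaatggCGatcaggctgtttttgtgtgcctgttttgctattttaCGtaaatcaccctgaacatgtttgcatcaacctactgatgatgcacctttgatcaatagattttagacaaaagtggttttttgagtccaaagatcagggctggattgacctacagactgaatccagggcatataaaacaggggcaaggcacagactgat
Sox2: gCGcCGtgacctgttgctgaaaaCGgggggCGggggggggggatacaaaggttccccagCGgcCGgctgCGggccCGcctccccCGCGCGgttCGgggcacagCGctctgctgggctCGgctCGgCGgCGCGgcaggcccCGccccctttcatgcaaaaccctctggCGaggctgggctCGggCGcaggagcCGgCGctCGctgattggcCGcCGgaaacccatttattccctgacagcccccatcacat
Shox2: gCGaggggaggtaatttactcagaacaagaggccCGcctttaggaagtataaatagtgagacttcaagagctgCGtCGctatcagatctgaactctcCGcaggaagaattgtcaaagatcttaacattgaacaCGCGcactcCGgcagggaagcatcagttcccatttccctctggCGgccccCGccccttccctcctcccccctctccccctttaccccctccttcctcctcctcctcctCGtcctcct
Fgb: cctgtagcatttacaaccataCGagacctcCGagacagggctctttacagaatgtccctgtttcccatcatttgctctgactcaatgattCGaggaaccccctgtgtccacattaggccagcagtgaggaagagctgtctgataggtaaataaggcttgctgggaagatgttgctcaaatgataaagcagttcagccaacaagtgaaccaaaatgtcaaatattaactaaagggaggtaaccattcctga
Hoxb4 held 14 CG, Tbx4 6 and G6pc 2 on chromosome 11, and Sox2 27, Shox2 11 and Fgb 3 on chromosome 3. The share of autosomal promoters with fewer CG was 59.4% for Hoxb4, 36.8% for Tbx4, 14.6% for G6pc, 88.5% for Sox2, 51.3% for Shox2 and 22.03% for Fgb. Hoxb8 with 12 CG and Hoxb1 with 7 (53.9 and 40.2% of promoters with fewer) were also looked up. Hoxb4 was the richest of these 3, and other HoxB promoters were not looked up. Of the other fibrinogen genes, Fga held 2 CG and Fgg 4. Hoxb1 and Tbx4 held fewer CG than the median promoter of chromosome 11.

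Chromosome 11 carried more islands than chromosome 3 in each liver, although it is the shorter chromosome. In vehicle replicates 1, 2 and 3 there were 803, 1147 and 985 islands on chromosome 11 and 419, 642 and 542 on chromosome 3. In TCPOBOP replicates 1, 2 and 3 there were 1094, 831 and 542 on chromosome 11 and 562, 420 and 272 on chromosome 3. Per Mb of chromosome this was 7.39 ± 1.83 against 2.98 ± 0.828 islands (SD, n = 6 livers), and the ratio lay between 2.34 and 2.61 in every liver. The difference of 4.41 islands per Mb became 2.84 when each list was cut to its highest-scoring islands up to the covered length of the shortest list. Islands covered 24.5, 19.7 and 13.7% of chromosome 11 with vehicle and 17.7, 19.4 and 12.3% with TCPOBOP. On chromosome 3 they covered 7.18, 6.64 and 4.98% with vehicle and 5.65, 6.54 and 4.22% with TCPOBOP. The lowest liver on chromosome 11 was thus above the highest on chromosome 3, with means of 17.9 ± 4.44 and 5.87 ± 1.12% (SD, n = 6). Among the 19 autosomes, chromosome 11 ranked 1 and chromosome 3 ranked 19 by covered percent in all 6 livers.

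**Figure D1:**
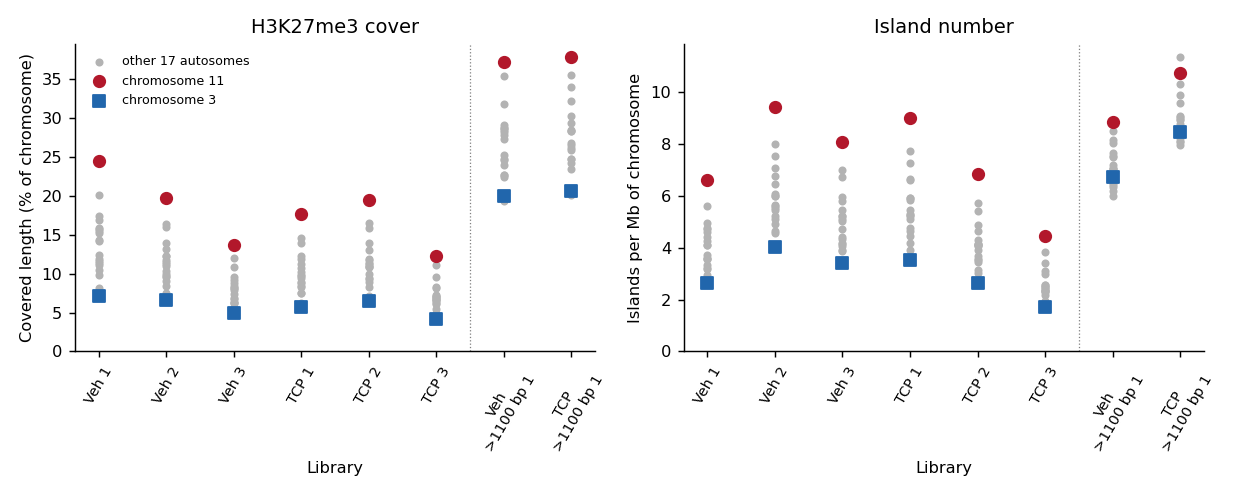
Covered length as a percent of the chromosome (left) and islands per Mb (right) in each of the 8 libraries; circles are chromosome 11, squares chromosome 3 and grey points the other autosomes, with the libraries of fragments over 1100 bp right of the dotted line. Chromosome 11 has the highest cover in all 8 libraries, from 12.3% to 37.8%, and chromosome 3 the lowest in the 6 libraries of 600 to 1100 bp.

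Islands on chromosome 11 were also slightly wider. Median width on chromosome 11 was 28, 15.6 and 13.6 kb with vehicle and 15.2, 24.0 and 24.8 kb with TCPOBOP. The medians on chromosome 3 were 24.0, 13.6 and 12.8 kb with vehicle and 13.6, 22 and 22.8 kb with TCPOBOP. Widths differed far more between livers than between the chromosomes, yet chromosome 11 was the wider in 6 of 6 livers. By median width chromosome 11 ranked 1 to 7 of the 19 autosomes in these livers and chromosome 3 ranked 7 to 19. The difference within a liver was 2.07 ± 1.06 kb (SD, n = 6, two-sided exact permutation p = 0.0312, the smallest that 6 pairs allow; adjusted over 3 tests 0.0469). It was 4.43 kb at equal covered length and 4.42 kb with mean in place of median widths. With 5 livers the smallest p is 0.0625, so no test without 1 liver could pass 0.05. Wider islands add to cover, by which the chromosomes were known to differ, so the test of width is not independent support. The upper end of the widths differed more: the 90th percentile was 43.5 ± 13.3 kb on chromosome 11 and 34.1 ± 9.04 kb on chromosome 3 (SD, n = 6). Vehicle replicate 1 held 162 islands over 50 kb on chromosome 11 and 37 on chromosome 3, and TCPOBOP replicate 3, with the shortest list, held 36 and 11. The widest island of a liver measured 118 to 399 kb on chromosome 11 and 69.2 to 110 kb on chromosome 3.

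By score rank within the list, islands of chromosome 11 stood higher. The median island of chromosome 11 lay at percentile 55.1, 54.9 and 53.4 of its list with vehicle and at 55.8, 54.6 and 49.9 with TCPOBOP, where 100 is the highest score. On chromosome 3 the median percentiles were 42.5, 44.8 and 46.6 with vehicle and 46.7, 47.0 and 48.9 with TCPOBOP. No liver's value on chromosome 3 reached any value on chromosome 11, and TCPOBOP replicate 3 showed the smallest gap, 1.03 points. By this median chromosome 11 ranked 1 to 10 of the 19 autosomes in the 6 livers and chromosome 3 ranked 13 to 19. The mean difference was 7.87 ± 3.92 percentile points (SD, n = 6, higher in 6 of 6 livers, two-sided exact permutation p = 0.0312, adjusted 0.0469). Since score grows with width, the limit given for the test of width holds here too. Per kb of island the chromosomes were not separated: median percentiles of score per kb were 51.6 ± 1.29 and 51.9 ± 1.65, a difference of -0.33 ± 2.43 points (SD, n = 6, higher on chromosome 11 in 2 of 6 livers, two-sided exact permutation p = 0.75, adjusted 0.75). This difference was -3.55 points with a common score minimum and -3.53 points at equal covered length. In the lists of fragments over 1100 bp, the score per kb did separate the chromosomes. There the median percentiles were 59.1 and 59.99 on chromosome 11 and 39.7 and 41.7 on chromosome 3, for the vehicle and the TCPOBOP liver. With 1 library per treatment, this difference between fragment classes was not tested.

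**Figure D2:**
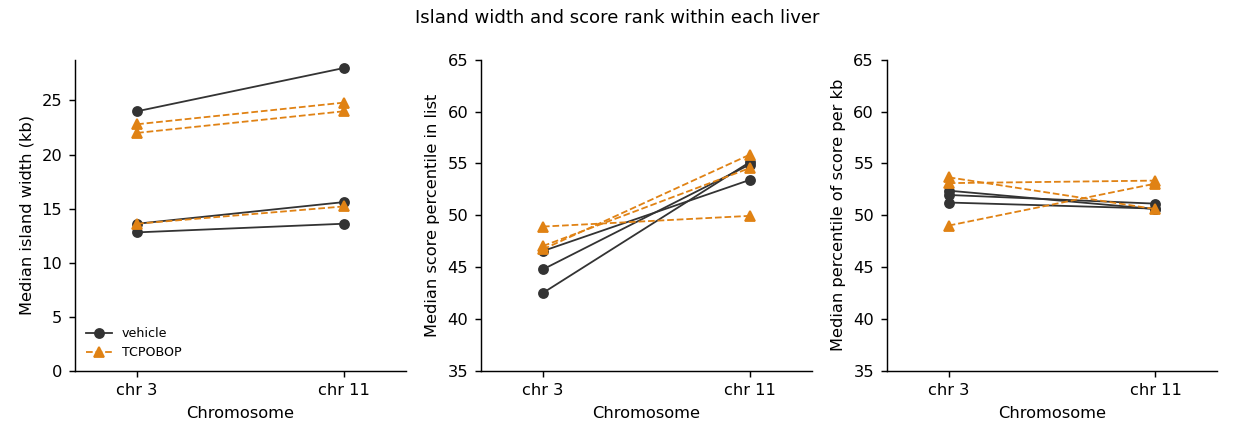
Median island width (left, kb), median score percentile (middle) and median percentile of score per kb (right) on chromosomes 3 and 11, a line joining the values of 1 liver (circles vehicle, triangles TCPOBOP). All 6 lines rise from chromosome 3 to chromosome 11 for width and score percentile, by means of 2.07 kb and 7.87 points, while 2 of 6 rise for score per kb.

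The highest-scoring islands of the chromosomes were few and recurrent. On chromosome 11 the top island of all 6 livers lay over the HoxB cluster, with ranks of 4, 13 and 2 in the vehicle lists and 8, 8 and 32 in the TCPOBOP lists. It was widest in vehicle replicate 1, 399 kb from 95981601 to 96380400 (mm9), and narrowest in TCPOBOP replicate 3, 72.8 kb from 96106801 to 96179600. A stretch that by general knowledge holds type I keratin genes, for the filaments of epithelia, gave 1 of the top 3 islands of chromosome 11 in 5 of 6 livers, all but TCPOBOP replicate 3. In vehicle replicate 1 this island ran 187 kb from 99200801 to 99388000 and ranked 28. The rest of the top 3 lay between 62788001 and 62995200 in 3 livers (vehicle replicate 2, TCPOBOP replicates 1 and 3), between 61044401 and 61162400 in 2 (replicate 3 of each treatment) and over Tbx2 and Tbx4 in 2 (vehicle replicate 1, TCPOBOP replicate 2). The best rank on chromosome 3 was 41, in TCPOBOP replicate 1, and 73 to 116 in the other livers. Among the 18 islands that were the top 3 of a liver on chromosome 3, 8 lay in a stretch between 87745601 and 88072800 and 5 over Tbx15. Others included 1 over Sox2, in TCPOBOP replicate 3, and 1 from 89117601 to 89176800, in vehicle replicate 3. Of the 100 highest-scoring islands of a list, 8 to 11 were on chromosome 11 and 0 to 6 on chromosome 3. Of all islands of a list, chromosome 11 held 7.78 to 8.61% and chromosome 3 held 4.08 to 4.36%. The counts among the top 100 thus lay near these shares and are not read as a surplus.

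Islands were spaced more closely on chromosome 11. The median gap between neighbours was 28, 22 and 29.6 kb with vehicle and 22.8, 32.4 and 65.2 kb with TCPOBOP. On chromosome 3 it was 84.0, 52.4 and 85.2 kb with vehicle and 62.8, 100.4 and 163 kb with TCPOBOP. Within each liver the gap was shorter on chromosome 11, although TCPOBOP replicate 3 on chromosome 11 exceeded vehicle replicate 2 and TCPOBOP replicate 1 on chromosome 3. The mean difference of -57.9 kb (SD 23.5, n = 6) was -121 kb with a common score minimum, -152 kb at equal covered length and -209 kb with mean in place of median gaps. Gaps under 10 kb made up 29.7 ± 5.33% on chromosome 11 and 17.9 ± 3.93% on chromosome 3, and gaps over 1 Mb took up 20.8 ± 4.53% and 47.6 ± 6.90% of the chromosome (SD, n = 6). The longest island-free stretch of a liver was 3.72 to 5.11 Mb on chromosome 11 and 4.00 to 6.79 Mb on chromosome 3. In vehicle replicate 1 and TCPOBOP replicate 3 it fell at almost the same place, from 72872401 to 79584400 and from 72873601 to 79658800 on chromosome 3.

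Along both chromosomes cover was lower between the centromere, where assembled mouse chromosomes begin, and the midpoint than beyond it. On chromosome 11 it was 10.4 ± 3.07% proximally and 25.3 ± 5.84% distally, and on chromosome 3 it was 3.61 ± 0.607 and 8.13 ± 1.68% (SD, n = 6). Distal cover was 2.26 to 2.72 times proximal cover on chromosome 11 and 1.92 to 2.43 times on chromosome 3. In bins of 5 Mb, mean cover over the 6 livers ranged from 3.30 to 41.6% over the 25 bins of chromosome 11 and from 0 to 17.9% over the 32 bins of chromosome 3. Of the 505 autosomal bins, 80 exceeded 20%, and 11 of them were on chromosome 11 and 0 on chromosome 3. Of the 102 bins under 2%, 0 were on chromosome 11 and 11 on chromosome 3. Covered percent of bins was correlated between livers, with Pearson correlations of 0.932 to 0.977 over the 25 bins and 0.90 to 0.972 over the 32 bins. These are descriptions, since all bins of a liver share 1 library and depth.

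The best covered bin of chromosome 11 ran from 95 to 100 Mb and holds the HoxB cluster. It was covered to 51.8, 45.4 and 37.6% with vehicle and 43.6, 40.5 and 30.5% with TCPOBOP, with a mean of 41.6 ± 7.27% (SD, n = 6), and ranked 2 of the 505 bins. It was followed by bins at 115 to 120 Mb (33.04 ± 8.71%), 100 to 105 Mb (33.01 ± 6.05%) and 80 to 85 Mb (32.8 ± 8.07%). The least covered bins of chromosome 11 were at 15 to 20 Mb (3.30 ± 1.21%), 25 to 30 Mb (4.43 ± 0.872%), 10 to 15 Mb (5.34 ± 0.726%) and 5 to 10 Mb (7.64 ± 2.32%). On chromosome 3 the best covered bin, at 85 to 90 Mb, held 24.8, 21.2 and 14.1% with vehicle and 17.3, 16.2 and 14.0% with TCPOBOP, and ranked 97 of 505. Next were bins at 105 to 110 Mb (17.05 ± 5.20%), 100 to 105 Mb (14.9 ± 5.74%) and 95 to 100 Mb (13.3 ± 2.49%), so the 3 stood side by side. The lowest bins of chromosome 3 were the first 5 Mb (0% in all 6 livers; mouse assemblies hold no sequence for the first 3 Mb), 20 to 25 Mb (0.188 ± 0.156%), 10 to 15 Mb (0.436 ± 0.295%) and 70 to 75 Mb (0.88 ± 0.256%). The 4 best bins held 32.3% of the territory of chromosome 11 and 33.7% of that of chromosome 3. These are 4 of 25 and 4 of 32 bins, and the coefficient of variation over bins was 0.591 on chromosome 11 and 0.854 on chromosome 3.

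**Figure D3:**
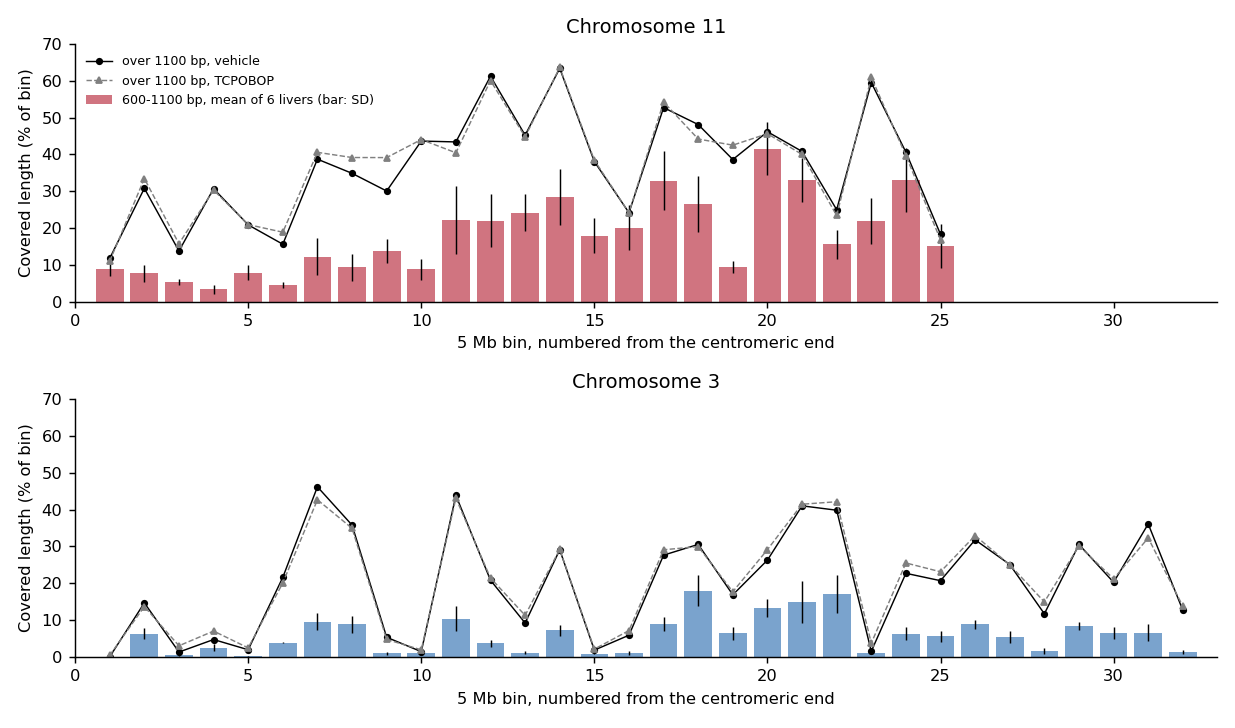
Covered percent of each 5 Mb bin, numbered from the centromeric end, on chromosome 11 (top) and chromosome 3 (bottom); bars are means of 6 livers with SD, circles and triangles the lists of fragments over 1100 bp. Bin 20 of chromosome 11 is the highest at 41.6%, and the highest mean on chromosome 3 is 17.9%.

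The contrast was smaller in the libraries of longer fragments. In the lists of fragments over 1100 bp, chromosome 11 had 1076 and 1308 islands and chromosome 3 had 1071 and 1350, for the vehicle and the TCPOBOP liver. Cover was 37.1 and 37.8% on chromosome 11 and 19.97 and 20.5% on chromosome 3, so the ratio was 1.86 and 1.84, against 2.75 to 3.41 in the 6 libraries of 600 to 1100 bp. Compared with the shorter fragments of the same ChIP sample, cover was 1.51 and 2.14 times as large on chromosome 11 and 2.78 and 3.63 times on chromosome 3. Every list was also cut to its highest-scoring islands up to 174 Mb. The ratio of cover was then 6.49 and 6.74 in the lists over 1100 bp and 2.82 to 5.57 in the others. The smaller ratio was thus seen where the lower-scoring islands were kept, and this cut was chosen after the data were seen. In the lists over 1100 bp it left 116 and 133 islands on chromosome 11 and 26 and 31 on chromosome 3. These lists covered 654 and 676 Mb in full and the others 174 to 340 Mb, so the cut kept unlike shares of them. On chromosome 3 the bin at 30 to 35 Mb, which holds Sox2, stood at 46.2 and 42.7% in the lists over 1100 bp, against a mean of 9.56% in the shorter fragments. The bin at 70 to 75 Mb stayed low, at 1.82 and 2.09%. On chromosome 11 the 15 to 20 Mb bin, the least covered in the shorter fragments, stood at 30.7 and 30.3%. In the vehicle liver 5 of 25 bins of chromosome 11 were covered less by the longer fragments than by the shorter, and 0 of 32 bins of chromosome 3; in the TCPOBOP liver there were 0 on either. Of these 5, 1, at 95 to 100 Mb, holds the HoxB stretch described next. The longer lists both have an island-free stretch of 490 kb over HoxB, 95893601 to 96383600, of which 231 kb lay under islands in all 6 livers of shorter fragments. The next such stretch on either chromosome held 12 kb. Rows may be missing there from what was analysed, and the stretch is not read as loss of the mark.

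More of the territory of chromosome 11 was shared between livers. Of the 42.0 Mb of chromosome 11 covered in any of the 6 livers, 14.9% was covered in all 6 and 26.3% in 1 alone. Of the 21.89 Mb of chromosome 3, 10.6% was covered in all 6 and 40.4% in 1 alone. The difference of 4.25 percentage points was 8.52 for positions covered in at least 5 livers and 2.59 with a common score minimum. Taken by liver, 8.04 ± 2.497% of a liver's own territory on chromosome 11 was found in no other liver, against 15.5 ± 2.28% on chromosome 3 (SD, n = 6), and the ranges, 4.98 to 12.4% and 12.5 to 19.01%, just failed to overlap. The Jaccard index, the length covered in both lists over the length covered in either, had a mean of 0.452 over the 15 pairs of livers on chromosome 11 and 0.374 on chromosome 3, and was higher on chromosome 11 in 15 of 15 pairs. Pairs share livers, and more cover raises the index by itself, so no test was made. From cover alone the means would be 0.095 and 0.0297, which puts the observed values at 4.76 and 12.6 times that level. With chromosome 11 cut in each list to its highest-scoring islands up to the covered percent of chromosome 3, its mean index was 0.439, higher in 15 of 15 pairs, and 16.4% of its territory was common to all 6 livers. This cut was also chosen after the data were seen, and it sets the top islands of chromosome 11 beside all islands of chromosome 3. Between the lists of fragments over 1100 bp the index was 0.812 on chromosome 11 and 0.68 on chromosome 3.

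**Figure D4:**
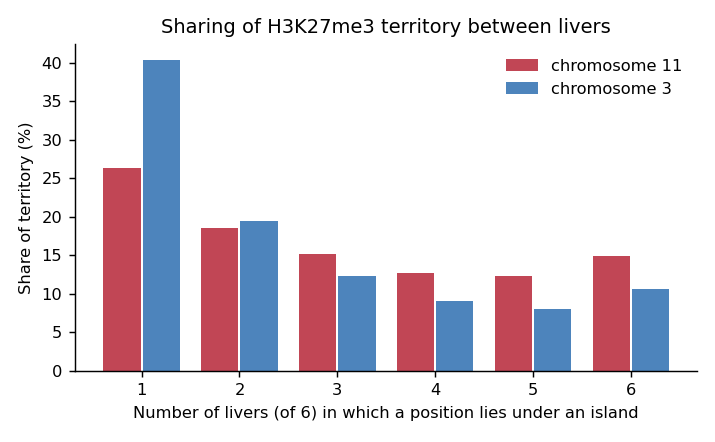
Share of the territory of chromosome 11 and of chromosome 3 (percent of the length covered in any liver) that lay under islands in 1 to 6 of the 6 livers. Positions found in 1 liver alone make up 26.3% on chromosome 11 and 40.4% on chromosome 3, and those found in all 6 make up 14.9% and 10.6%.

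On both chromosomes, positions shared by more livers were more often covered in the libraries of longer fragments. Of positions covered in 1 liver alone, 59.0 and 58.0% of those on chromosome 11 and 59.6 and 59.7% of those on chromosome 3 lay under islands of the vehicle and TCPOBOP lists over 1100 bp. Those lists covered 37.1 and 37.8% of all of chromosome 11 and 19.97 and 20.5% of all of chromosome 3. Similar shares on the chromosomes thus stand on unlike backgrounds. Of positions covered in all 6 livers the shares were 93.0 and 92.0% on chromosome 11 and 93.5 and 92.7% on chromosome 3. Without the 600 kb around HoxB, chromosome 11 stood at 96.6 and 95.5%. Replicate 1 of each treatment gave libraries to both classes, so these shares are not independent.

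Merging the islands of the 6 livers gave 938 regions on chromosome 11 and 791 on chromosome 3. Of these, 74 (7.89%) and 43 (5.44%) were present, with at least 50% of their length covered, in all 6 livers, against 843 of 14560 regions (5.79%) in all chromosomes. Shared regions were wider on chromosome 11, with a median of 78.2 kb against 37.6 kb. The longest on chromosome 11 was 408 kb, from 95972801 to 96380400 over HoxB, covered to 67 to 97.8% in the 6 livers. A region of 373 kb from 101629601 to 102002400 was covered to 72.9 to 93.0%, and 1 of 320 kb over Tbx2 and Tbx4, from 85530801 to 85850400, to 64.96 to 93.2%. On chromosome 3 the longest were 174 kb from 107202801 to 107376400 (50 to 93.3%), 122 kb from 84188401 to 84310000 (61.5 to 83.6%) and 116 kb from 87730801 to 87846800 (74.5 to 88.3%).

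Windows of named developmental loci held islands on both chromosomes in each liver, while 2 windows of liver genes held none or the edge of 1. Mean cover was 17.9% of chromosome 11 and 5.87% of chromosome 3, so a window at 0% is not unusual by itself. Windows of other genes were not counted for comparison. The windows are approximate mm9 positions from general knowledge. On chromosome 11 the HoxB window, over genes that pattern the body axis, was covered to 100, 96.6 and 100% with vehicle and 96.8, 98.4 and 77.8% with TCPOBOP. Tbx2 and Tbx4, T-box genes of limb and heart, were covered to 100, 95.6 and 68.6% with vehicle and 90.4, 96.6 and 77.0% with TCPOBOP. Both windows lay mostly or wholly under islands in each liver, with vehicle replicate 3 lowest at Tbx2 and Tbx4 and TCPOBOP replicate 3 lowest at HoxB. Otx1, a homeobox gene of the forebrain, had a single island in its window in each liver, with 40, 40.8 and 25.6% covered with vehicle and 24.8, 40.8 and 43.2% with TCPOBOP. The window of Sox9, which drives cartilage and bile duct fates, stood at 87.2, 18.0 and 15.6% with vehicle and 28.4, 28.4 and 50.4% with TCPOBOP, so vehicle replicate 1 was far above the rest. In vehicle replicates 2 and 3 the Sox9 window was near the cover of all of chromosome 11, 19.7 and 13.7%. Its islands ranked no better than 2058 in any of these lists, unlike those of HoxB.

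On chromosome 3 the Sox2 window stood at 73.6, 44.8 and 43.2% with vehicle and 73.2, 46.4 and 42.4% with TCPOBOP. Its window held 2 islands in replicate 1 of each treatment and 1 island of 42.4 to 46.4 kb in the other 4 livers. Each count was thus found in both treatments. Tbx15, a T-box gene of skeleton and skin, stood at 46.1, 52.0 and 29.3% with vehicle and 50.4, 65.3 and 46.1% with TCPOBOP. Shox2 stood at 34.0, 24.4 and 25.2% with vehicle and 16.0, 29.6 and 39.2% with TCPOBOP. Vehicle and TCPOBOP livers overlapped in each of the 7 developmental windows. On chromosome 11 the G6pc window had 0% covered in all 8 lists. The window of Fga, Fgb and Fgg, which encode the fibrinogen chains, was at 0% in 5 livers and at 1.71% in vehicle replicate 1, where the edge of 1 island that ranked 10001 of 10057 reached it. Chromosome 3, with less territory in all, thus held developmental loci under islands, and its top islands over Sox2 and Tbx15 ranked between 61 and 168 in the 6 lists.

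**Figure D5:**
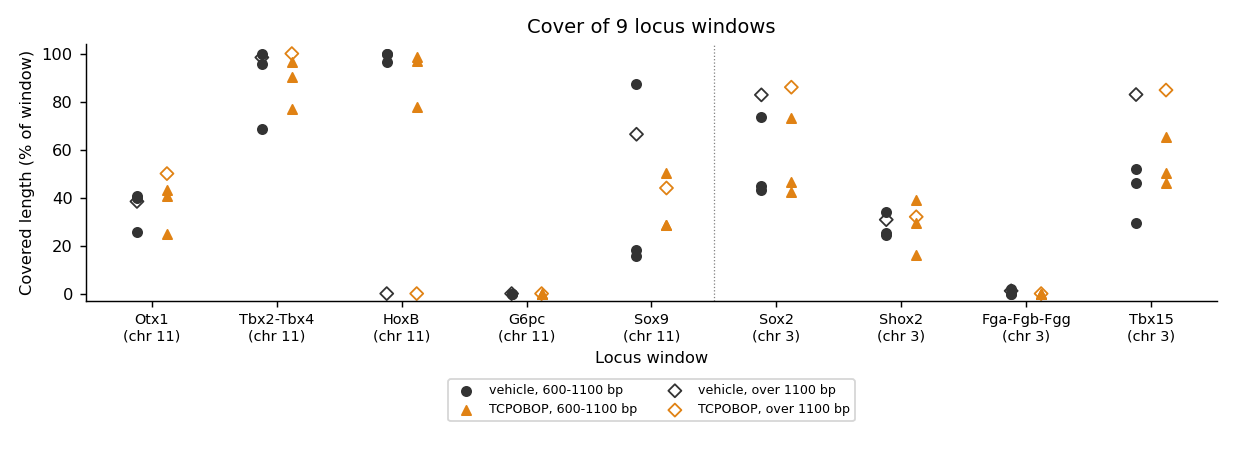
Covered percent of 9 locus windows in each library, chromosome 11 left and chromosome 3 right of the dotted line; filled symbols are fragments of 600 to 1100 bp, open symbols fragments over 1100 bp. G6pc is at 0% in all 8 libraries, HoxB at 77.8 to 100% in the 6 livers, and the 0% of HoxB in the open symbols falls in the stretch where rows may be missing.

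Mean cover of either chromosome differed between TCPOBOP and vehicle by less than the SD within a treatment. Cover of chromosome 11 was 19.3 ± 5.42% with vehicle and 16.4 ± 3.72% after TCPOBOP (SD, n = 3 each, difference -2.86 points, two-sided exact permutation p = 0.4, adjusted over 3 tests 0.75). Cover of chromosome 3 was 6.27 ± 1.15% and 5.47 ± 1.17% (SD, n = 3 each, difference -0.795 points, exact permutation p = 0.5, adjusted 0.75), and turned to 0.354 points higher with TCPOBOP at equal covered length. The log2 ratio of chromosome 11 to chromosome 3 was 1.60 ± 0.16 with vehicle and 1.58 ± 0.05 after TCPOBOP, a difference of -0.02 (SD, n = 3 each, exact permutation p = 0.8, adjusted 0.8). The smallest p for 3 livers against 3 is 0.1, so none of these tests could pass 0.05. Between livers of the same replicate number, cover was lower with TCPOBOP in 3 of 3 pairs on both chromosomes, and the exact sign-flip permutation p was 0.25, the smallest that 3 pairs allow. The difference on chromosome 11 was -0.256 points without vehicle replicate 1, -0.773 without TCPOBOP replicate 3, -5.66 without vehicle replicate 3, and -4.34 without TCPOBOP replicate 2. With lists cut to equal cover it was -0.443, and with merged lists of a ChIP sample -0.927. That on chromosome 3 was -0.339, -0.17, -1.44 and -1.33 without the same 4 livers. The difference in log2 ratio was 0.07 without vehicle replicate 1 and 0.01 without TCPOBOP replicate 3, so its direction rested on single livers.

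By bin, limma on the covered percent of 496 autosomal bins called 0 bins of chromosome 11 and 0 of chromosome 3 at an adjusted p of 0.05, where 0% of all bins were called. At an unadjusted p under 0.05 there were 0 of 25 bins of chromosome 11 and 1 of 31 bins of chromosome 3, lower with TCPOBOP, against 1.01% of all bins. With the replicate number as a block, 1 bin of chromosome 11 and 1 of chromosome 3 had an unadjusted p under 0.05, both lower, and 0 were called; over all bins 6.65% passed that p as lower and 0.202% as higher with TCPOBOP, and 0.202% were called. Without the block, the 1 bin lay at 135 to 140 Mb of chromosome 3, with 1.66, 2.304 and 2.65% covered with vehicle and 1.42, 1.47 and 0.376% with TCPOBOP (difference -1.12 points, limma SE 0.428, limma adjusted p = 0.979). The bins of smallest p on chromosome 11 were at 50 to 55 Mb (-7.51 points, limma SE 5.88) and 5 to 10 Mb (-2.49 points, limma SE 1.98), both with a limma adjusted p of 0.979. At 135 to 140 Mb and at 10 to 15 Mb of chromosome 3 (0.60, 0.384 and 0.944% against 0.216, 0.136 and 0.336%) the treatments did not overlap, with vehicle above. These were 2 of 32 bins of chromosome 3 and 0 of 25 of chromosome 11, against 3.37% of all bins, and 0 bins of either chromosome had TCPOBOP above, against 0.396%. Of the 25 bins of chromosome 11, 22 were lower with TCPOBOP (median difference -2.89 points), as were 21 of 31 on chromosome 3 (-0.389) and 396 of 496 in all (-0.948). Centring each library moved the median of all bins to 0.62 and left 17 of 25, 8 of 31 and 185 of 496 lower. Centring shifts all bins of a library alike, so small differences such as those on chromosome 3 change sign by construction. On simulated data for this comparison with 496 bins, the 60 changed bins all had a mean cover above 5%. Limma recovered 0 of 60 that lost 0.5 of their cover and 54 of 60 that lost all of it. The bins at 135 to 140 and 10 to 15 Mb of chromosome 3, at 1.65 and 0.436%, lie below that cover. Noise was drawn for each bin alone, without shifts of whole libraries, and full loss left no spread with TCPOBOP. The 54 of 60 therefore cannot be carried over to the real lists, and losses of 0.5 were not detectable in this simulation.

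Few regions were found in 1 treatment alone: 4 of 938 on chromosome 11 and 5 of 791 on chromosome 3, against 0.309% of all regions. Those covered by at least 50% in each vehicle liver and at 0% in each TCPOBOP liver numbered 3 on chromosome 11 (0.32%) and 5 on chromosome 3 (0.632%), against 0.261%. In the opposite direction there was 1 on chromosome 11 and 0 on chromosome 3, against 0.0481%. The 3 on chromosome 11 were 16.0 kb from 20688801 to 20704800, 12.4 kb from 32115601 to 32128000 and 22 kb from 34641201 to 34663200. The 5 on chromosome 3 were 19.6 kb from 37156401 to 37176000, 6.0 kb from 69449601 to 69455600, 17.6 kb from 89649201 to 89666800, 24.8 kb from 103180801 to 103205600 and 28.8 kb from 103470801 to 103499600. The region found in TCPOBOP livers alone spanned 29.2 kb from 26688801 to 26718000 on chromosome 11, with 53.4, 98.6 and 95.89% covered. The longer fragments covered 6 of the 8 vehicle regions and the TCPOBOP region by at least 50% in the lists of both treatments. The remaining 2 vehicle regions, 12.4 kb on chromosome 11 and 6.0 kb on chromosome 3, were at 0% in both. At equal covered length 0 vehicle regions were left on either chromosome. Leaving out 1 liver asks for presence in fewer livers and gave 15, 7 and 13 vehicle regions on chromosome 11 without vehicle replicate 1, 2 or 3, and 16, 7 and 3 without TCPOBOP replicate 1, 2 or 3. On chromosome 3 the numbers were 31, 8 and 14, and 12, 6 and 5. The share over all regions was counted only for the first rule, with all 6 livers and full lists. The counts under other rules therefore have no background and are not read further.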

How the data were processed

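H3K27me3 ChIP-seq islands of 8 liver libraries were used. Bowtie2 2.3.2, SICER 1.1 and mm9 are listed, without roles, per the submitters' processing notes. The deposited lists hold the authors' score for each island, called on each library separately, and scores were ranked only within a list. The labels do not say whether an input was used. The lists hold no read counts, so depth and counting error are unknown. Islands end on a 400 bp grid with gaps of at least 2800 bp, and coordinates are 1-based. mm9 chromosome lengths were taken from general knowledge.

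Chromosomes were compared within each liver by two-sided exact sign-flip permutation tests over 64 patterns, and treatments by exact permutation over 20 labellings, each adjusted by Benjamini-Hochberg over 3 tests. Covered percent of all autosomal bins of 5 Mb went into a limma fit (limma 3.58.1, R 4.3.3, trend, Benjamini-Hochberg at 0.05), leaving out bins at 0 in all livers, and the fit was checked on simulated data. Python 3.11.15 with numpy 2.4.6, pandas 2.3.3 and matplotlib 3.10.9 did the rest. Alternatives were a score minimum of 84.6, equal covered length, the stretch around HoxB masked, merged lists of a ChIP sample, means for medians, lengths without the first 3 Mb, other bin sizes and fits, and each liver left out.

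The labels tie no replicate number to a shared animal. Over 505 bins, deviations of same-numbered vehicle and TCPOBOP livers from their group means correlated at 0.673, 0.157 and 0.881, and as shares of each library's total at 0.464, 0.269 and 0.427, so a fit with the number as a block was run too.

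The text names, per chromosome, the 3 longest regions present in all 6 livers, islands among the 3 of highest score per list of 600 to 1100 bp, the 4 best and 4 least covered bins, the longest island-free stretches, all regions of 1 treatment alone, the 2 bins with the smallest limma p and 9 windows; 1 further locus is not reported here. Chromosomes, windows and lists were chosen with earlier results of these data known.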

Additional observations from a re-analysis of the deposited data

How the results depend on the processing

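The depth of each library is unknown, so what depth limits could not be measured. Between chromosome 11 and chromosome 3, differences in width and score percentile kept their direction in each alternative run with all 6 livers. Merged lists of a ChIP sample were run for width but not for score percentile. With 6 livers of 1 direction the exact permutation p is 0.0312 whatever the size, so passing 0.05 adds nothing to the direction. Nor are these tests independent of how the chromosomes were picked. With 5 livers, where the smallest p is 0.0625 before adjustment, the differences were 1.68 to 2.32 kb and 6.93 to 9.24 points. Islands per Mb differed by 4.41, by 3.12 (score minimum) and 2.84 (equal covered length), and the median gap by -57.9 kb, -121 kb (score minimum), -152 kb (equal covered length) and -209 kb by means; the cause was not tested. The difference in score per kb, -0.33 points, became 0.0833 by means, -3.53 at equal covered length and -3.55 under the score minimum; leaving out each liver gave -1.20 to 0.22, above 0 where TCPOBOP replicate 3 was left out. Territory common to all 6 livers differed by 4.25 points, by 8.52 for at least 5 livers, by 2.59 under the score minimum and by 4.25 to 6.94 with 1 liver left out. The SD over bins of chromosome 3, 5.01 points, was 3.47 at equal covered length; the cause was not tested.

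With TCPOBOP, cover of chromosome 3 turned to 0.354 points higher at equal covered length, where that of chromosome 11 was -0.443. The log2 ratio of the chromosomes turned to 0.0122 with merged lists and ranged from -0.0864 to 0.0693 with 1 liver left out; the cause was not tested. With 1 liver left out the cover difference was -5.66 to -0.256 points on chromosome 11 and -1.44 to -0.17 on chromosome 3. With the replicate block the treatment differences are the same by construction (-2.86 and -0.795 points, log2 ratio -0.02; smallest possible exact p 0.25), and limma called 0 bins of either chromosome with the block and under its other settings.

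Vehicle regions on chromosomes 11 and 3, 3 and 5, numbered 1 and 1 at 80% cover, 8 and 9 for any overlap, 0 and 0 at equal covered length, 1 and 1 under the score minimum, 1 and 2 with merged lists, and 3 to 16 and 5 to 31 with 1 liver left out. TCPOBOP regions, 1 and 0, numbered 0 at 80% on chromosome 11, 2 and 1 for any overlap, 0 and 1 with the score minimum, 0 on chromosome 11 with merged lists, and 1 to 4 and 0 to 3 with 1 liver left out. No share over all regions was counted for these alternatives.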
